A study of Mus musculus with 6 samples.

Results

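The 6 genes described here, Siglech, Ccr9, Ly6d, Tcf4, Irf8 and Runx2, are commonly used to recognize plasmacytoid dendritic cells (pDC). They were taken by symbol from the deposited table, which lists 57180 genes, and all 6 were among the 14761 genes with enough counts to be tested. RNA was sequenced from CD36+ NK and CD36- NK cells, 3 libraries of each, to ask what the fatty acid receptor CD36 does in natural killer (NK) cells. The cells were sorted as CD3- NK1.1+ from livers of male wild-type C57BL/6J mice aged 6 to 8 weeks with liver fibrosis. Both groups came from animals that had received carbon tetrachloride (CCl4), as 2.5 ml/kg of a 20% solution in olive oil with 2 injections per week for 4 weeks, and were harvested 48 h after the last injection. Each library is a bulk sort, and no library from untreated mice was part of the comparison. The design text calls the libraries biological triplicates and does not state how many animals went into each, so the p-values measure the spread between these libraries.

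pDC are rare blood and tissue cells that sense viral nucleic acids through endosomal Toll-like receptors and answer with large amounts of type I interferon. Mouse pDC carry the sialic acid-binding lectin SIGLEC-H and the chemokine receptor CCR9 on their surface, and LY6D marks lymphoid progenitors from which B cells and part of the pDC arise. The E protein TCF4 (also called E2-2) sets the identity of pDC, with RUNX2 acting with it in their maturation and exit from the bone marrow, and IRF8 acting in the development of dendritic cells and B cells. Of the 6, Siglech is the most restricted to pDC, whereas Ly6d, Irf8 and Tcf4 are also transcribed in B lineage cells, Runx2 is found in several lineages, and Ccr9 is also carried by some T cells.

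Because TCF4 protein binds short motifs called E-boxes, the promoters of the pair of surface genes most restricted to pDC are shown first. RefSeq promoter entries (GRCm38.p6) were found for 4 of the 6 genes, in 5 entries, and the 250 bases before each start were searched on both strands. The lines below give the Siglech window at chr7:55767934-55768183 and the Ccr9 window at chr9:123766961-123767210, both on the plus strand and written 5′ to 3′, with the E-box CACCTG, or CAGGTG where it lies on the minus strand, in capitals.
Siglech: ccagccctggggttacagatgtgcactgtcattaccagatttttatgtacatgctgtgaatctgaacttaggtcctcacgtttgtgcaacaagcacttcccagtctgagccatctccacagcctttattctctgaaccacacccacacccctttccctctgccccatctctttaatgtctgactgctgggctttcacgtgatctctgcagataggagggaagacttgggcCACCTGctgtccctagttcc
Ccr9: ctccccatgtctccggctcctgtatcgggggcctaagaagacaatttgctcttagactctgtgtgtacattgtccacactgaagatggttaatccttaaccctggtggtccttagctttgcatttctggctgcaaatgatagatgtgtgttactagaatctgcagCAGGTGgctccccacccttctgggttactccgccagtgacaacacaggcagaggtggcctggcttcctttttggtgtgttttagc
The Siglech E-box began 20 bases before the start and the Ccr9 E-box 85 bases before it. CACCTG was present in 17.2% of all 32851 promoter windows of this length, and the other E-box searched, CAGCTG, in 13%. CAGCTG was in no window of the 4 genes, CACCTG was also in 1 of the 2 Irf8 windows, and the Runx2 window held neither. The RUNX letters TGTGGT were found in the Siglech and Runx2 windows and in 14.0% of all windows. The interferon-stimulated letters GAAANNGAA, in 7.13% of all windows, and the ETS-IRF letters GGAANNGAA, in 6.99%, were in no window of the 4 genes. A match describes letters only, and binding was not measured.

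The libraries held 10292480 to 13787189 counts. Cd36 had 110, 263 and 238 CPM in CD36+ NK and 14.3, 31.7 and 17.1 CPM in CD36- NK, so every library titled CD36+ NK was above every library titled CD36- NK (log2 fold change 3.27 ± 0.43 SE, edgeR quasi-likelihood test, adjusted p = 0.00615). The groups also differed in markers of the sorted cells. All 10 NK cell markers, among them the granzyme gene Gzma and the perforin gene Prf1, were lower in CD36+ NK, with a summed level of 827 to 973 CPM against 4441 to 5615 CPM in CD36- NK. B cell markers were abundant in both groups. CD36+ NK replicate 1 stood apart in T cell markers, which summed to 338 CPM there and to between 27.4 and 47.7 CPM in the other 5 libraries. CPM are counts per 1000000 counts of a library, with the library total scaled by the trimmed mean of M values (TMM). In bulk samples, fewer cells of a type and less RNA per cell cannot be told apart.

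Levels were compared between genes in FPKM, counts divided by gene length and library total, and the 6 genes lay far apart on this scale. Ly6d stood highest, with a mean of 362 ± 36.6 FPKM in CD36+ NK and 246 ± 45.9 FPKM in CD36- NK (SD, n = 3 each), above 99.0% of all tested genes in its mean over the 6 libraries. Irf8 followed with 37.2 ± 12.9 and 51.3 ± 18.2 FPKM, above 93.1% of tested genes. Both genes therefore ranked among the well-transcribed genes of these sorted cells.

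Runx2 and Tcf4 lay in the lower part of the range. Runx2 had 2.31 ± 0.25 FPKM in CD36+ NK and 2.73 ± 0.30 FPKM in CD36- NK, and Tcf4 had 1.69 ± 0.31 and 1.54 ± 0.53 FPKM. Their ranges over the libraries, 2.05 to 3.06 FPKM for Runx2 and 0.959 to 1.99 FPKM for Tcf4, did not overlap. Siglech had 0.411 ± 0.13 and 0.356 ± 0.11 FPKM and Ccr9 had 0.229 ± 0.092 and 0.106 ± 0.020 FPKM. These were the lowest levels of the 6, above only 7.48% and 2.26% of tested genes, and their ranges over the libraries, 0.241 to 0.536 FPKM and 0.0891 to 0.334 FPKM, overlapped each other. FPKM depends on the length assigned to a gene, and the values imply 51.3 kb for Tcf4, 22.7 kb for Ccr9, 17.8 kb for Runx2, 8.87 kb for Irf8, 8.07 kb for Siglech and 0.744 kb for Ly6d. The low FPKM of Tcf4 and its place below Runx2 rest on that length, since Tcf4 had more counts than Runx2 in every library. The place of Ccr9 below Siglech also rests on length, since Ccr9 had 270 counts in all and Siglech 222.

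**Figure D1:**
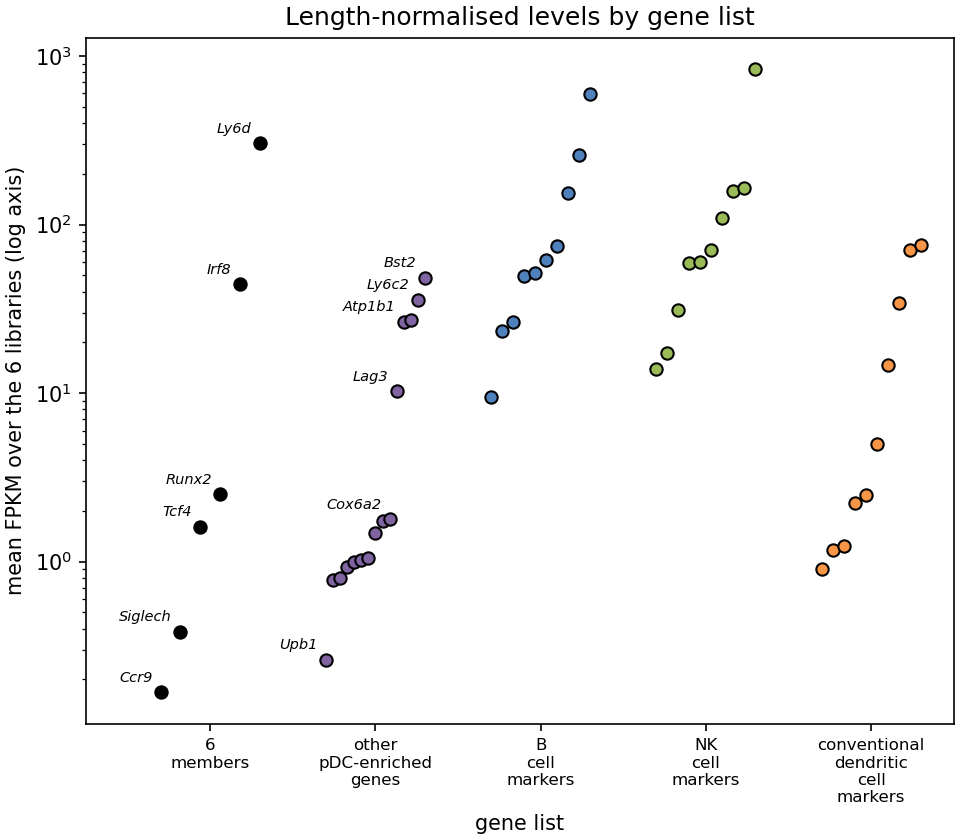
Mean FPKM over the 6 libraries (log axis) of the 6 genes, of 15 other pDC-enriched genes and of 10 markers each of B cells, NK cells and conventional dendritic cells, 1 point per gene. Ly6d and Irf8 sit among the B cell and NK cell markers, whereas Siglech and Ccr9 are below every marker of those 3 cell types.

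This order bears on the name given to the 6 genes. The members that define pDC most narrowly were near the lower end of detection, with 20 to 48 counts per library for Siglech and 25 to 84 for Ccr9, in both groups. Of the other pDC-enriched genes, Klk1, Klra17, Upb1, Cd300c, Smim5 and Cox6a2 had at most 5.16 CPM in any library (these 6 were picked out after their values were seen). The other 9 genes of that list were higher, with group means from 6.38 CPM for Lifr to 214 CPM for Ly6c2. Of the members shared with B lineage cells, Ly6d and Irf8 were abundant in FPKM and Tcf4 was not. Also abundant was the B cell marker Cd79a, a signalling chain of the B cell receptor. Cd79a had a mean of 596 FPKM over the 6 libraries, above Ly6d. Since the 6 genes lay at such unequal levels, they are called by their symbols in what follows.

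Between the groups, none of the 6 genes was a differentially expressed gene (DEG), defined by a fold change above 2 with an adjusted p below 0.05 in edgeR's quasi-likelihood test. The background was 5.96% of all tested genes, 2.98% higher and 2.98% lower in CD36+ NK. At an unadjusted p below 0.05, 2 of the 6 passed (Ccr9 and Ly6d) against 26.3% of all genes, and at an adjusted p below 0.05 with any fold change 1 of 6 passed (Ly6d) against 10.5%. The libraries of both groups did not overlap in CPM for the same pair of genes, both higher in CD36+ NK, against 32.8% of all genes. With DESeq2 or edgeR's exact test, 1 of 6 was called, Ccr9 in each case, against 7.74% and 8.45% of all genes. The median log2 fold change of the 6 was 0.21, beside 0.012 for all tested genes.

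**Figure D2:**
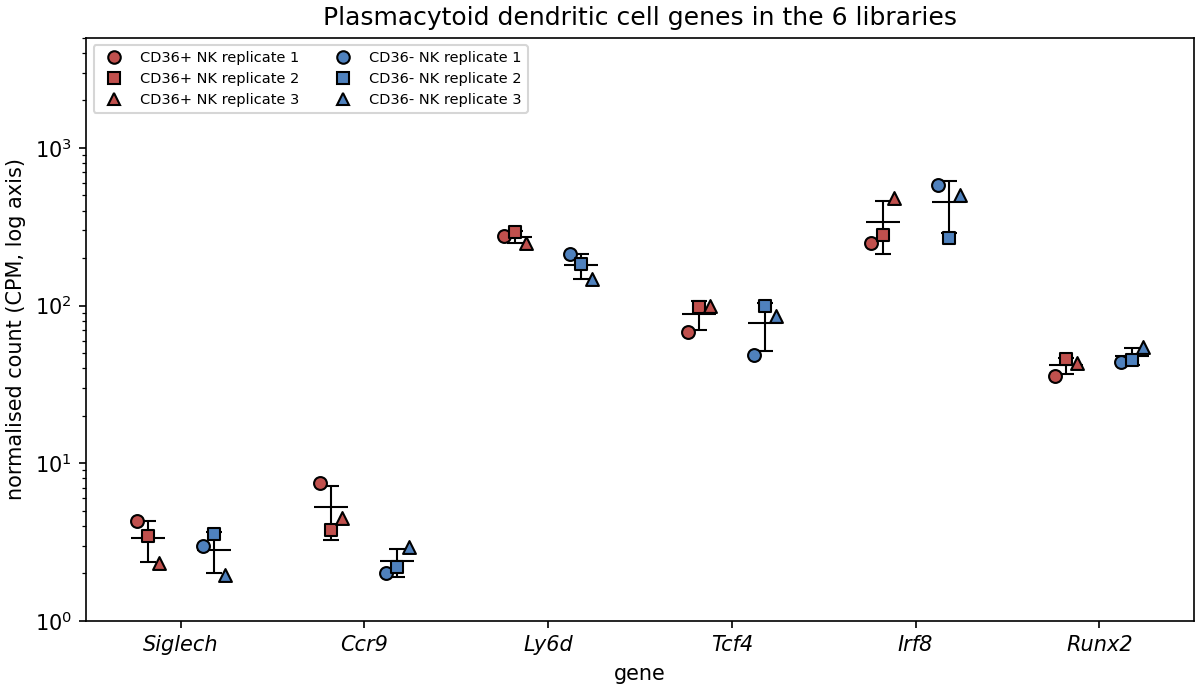
TMM-scaled CPM (log axis) of the 6 genes in the 3 CD36+ NK (red) and 3 CD36- NK (blue) libraries, with horizontal lines at the group means and bars of 1 SD. The groups separate for Ccr9 and Ly6d and overlap for Siglech, Tcf4, Irf8 and Runx2.

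Among the surface genes, Siglech (ENSMUSG00000051504, chromosome 7, 55417926 to 55428673, plus strand in the table's own coordinates) encodes an endocytic lectin that signals through the adaptor DAP12. It had 4.27, 3.46 and 2.33 CPM in CD36+ NK and 2.998, 3.54 and 1.95 CPM in CD36- NK. The groups overlapped, and the libraries within a group differed by up to 1.84 times, more than the 1.18-fold difference of the groups. The log2 fold change was 0.24 ± 0.33 (SE, edgeR adjusted p = 0.710), with a 95% interval of the fold from 0.691 to 2.01, so neither a small decrease nor a doubling could be told from no difference at this depth. Poisson counting error alone was 14.4% to 22.4% of each Siglech count. Without CD36+ NK replicate 1, which had the highest level, the log2 fold change was 0.019, and without CD36+ NK replicate 3 it was 0.44. These were the lowest and highest values with single libraries left out.

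Ccr9 (ENSMUSG00000029530, chromosome 9, 123507504 to 123613395, plus strand) encodes the receptor for the gut and thymus chemokine CCL25. It had 7.48, 3.75 and 4.49 CPM in CD36+ NK and 2.00, 2.21 and 2.93 CPM in CD36- NK. Every CD36+ NK library was above every CD36- NK library, and CD36+ NK replicate 1 was the highest by a wide margin. The fold was 2.20 with a 95% interval from 1.29 to 3.75, and the log2 fold change of 1.14 ± 0.33 (SE) had an unadjusted p of 0.0101 and an adjusted p of 0.0715 in edgeR's quasi-likelihood test. The adjusted p was 0.0412 with DESeq2 and 0.0277 with edgeR's exact test, so whether Ccr9 passed depended on the test.

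The library with the most Ccr9 was also the library with the most T cell markers. Cd4 and Cd8a, the T cell co-receptor genes and the highest of that list in mean CPM, had 51.4 and 63.2 CPM in CD36+ NK replicate 1. They were also higher in the other CD36+ NK libraries, with 11.3 and 23.9 CPM for Cd4 and 8.98 and 16.5 CPM for Cd8a, than in CD36- NK, with at most 7.78 and 4.24 CPM. Cd4 and Cd8a were DEGs, with log2 fold changes of 2.34 and 3.17 (edgeR adjusted p = 0.0396 for each). The other 6 T cell markers, which include the CD3 chain genes Cd3e, Cd3d and Cd3g, were not called and had non-overlapping groups in no case. Cd3e had 27.0 CPM in CD36+ NK replicate 1 and 0.0831 to 1.06 CPM elsewhere. In the other CD36+ NK libraries, Cd3e, Cd3d, Cd3g and the T cell receptor gene Trac were below every CD36- NK library, as with Cd3d at 1.32 and 1.33 CPM against 5.53 to 7.52 CPM. Without CD36+ NK replicate 1, the log2 fold change of Ccr9 was 0.78 ± 0.28 (SE, edgeR adjusted p = 0.138), and the other 2 CD36+ NK libraries still had more Ccr9 than all 3 CD36- NK libraries. The sort was gated on CD3- cells, and the part of T cell RNA in the Ccr9 difference was not tested.

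Ccr9 shares its span with 6 other entries of the table, 4 of them on the opposite strand. The most abundant of them was Gm10052 on the opposite strand, with 23934 counts in all against 270 for Ccr9, and a log2 fold change of 0.11. Lztfl1, which encodes a protein of ciliary transport, had 1532 counts and a log2 fold change of 0.17, and Gm17021 had 66 counts and a log2 fold change of 0.70. None of these 3 was a DEG. The strand setting of the counting was not given in the sources used here, so reads of overlapping entries cannot be told apart with certainty.

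**Figure D3:**
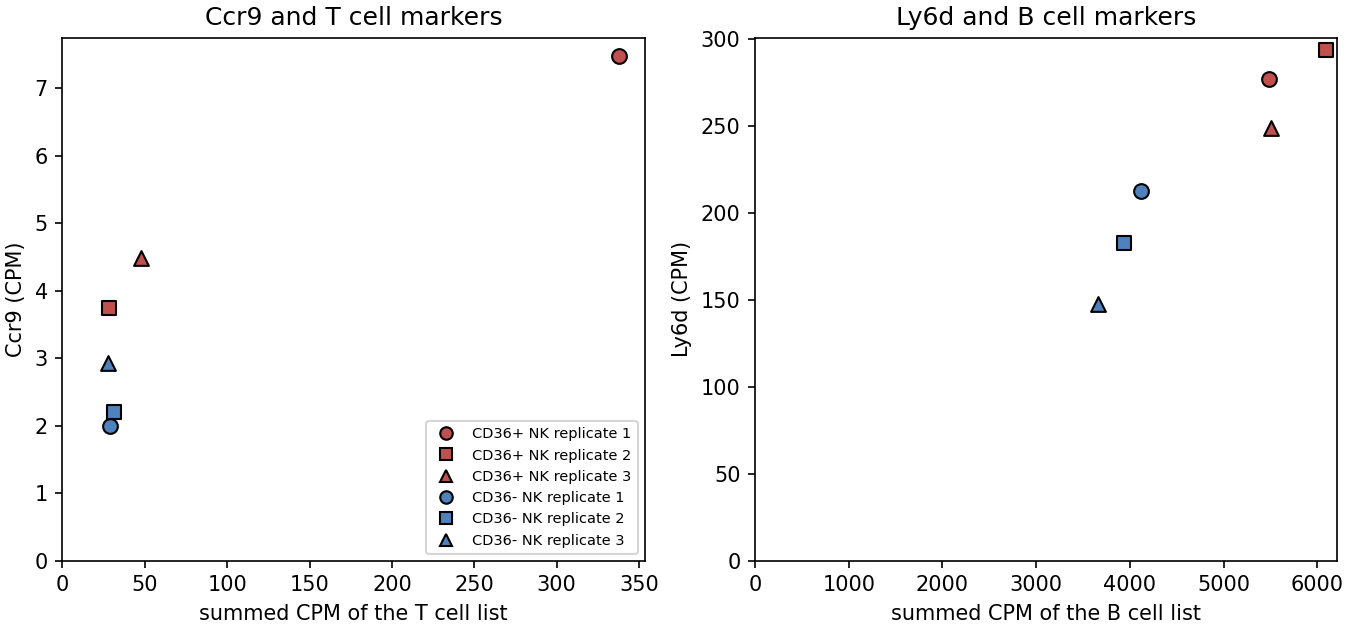
Ccr9 against the summed T cell markers (left) and Ly6d against the summed B cell markers (right), in CPM, 1 point per library. CD36+ NK replicate 1 lies far to the right for T cell markers at 338 CPM, and for B cell markers the 3 CD36+ NK libraries lie above the 3 CD36- NK libraries on both axes.

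Ly6d (ENSMUSG00000034634, chromosome 15, 74633905 to 74635469, minus strand) encodes a small membrane-anchored protein of the Ly6 family. It had 277, 293 and 249 CPM in CD36+ NK and 212, 182 and 147 CPM in CD36- NK. All CD36+ NK libraries were above all CD36- NK libraries. The fold was 1.51, with a 95% interval from 1.19 to 1.92, and the log2 fold change was 0.60 ± 0.15 (SE, edgeR adjusted p = 0.0457). Ly6d passed the adjusted p but not the fold threshold. The adjusted p was between 0.0534 and 0.143 when any single library was left out, with the log2 fold change between 0.46 and 0.72.

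The B cell markers were higher in CD36+ NK beside Ly6d. They summed to between 5484 and 6092 CPM in CD36+ NK and between 3657 and 4122 CPM in CD36- NK. Against 32.8% of all tested genes, 9 of 10 B cell markers did not overlap between the groups, all of these higher in CD36+ NK. Against 5.96% of all tested genes, 1 of 10 B cell markers was a DEG. Their median log2 fold change was 0.51, with 0.49 ± 0.12 for Cd79a (SE, edgeR adjusted p = 0.0457). As a percentage of the summed B cell markers, Ly6d was 5.05%, 4.81% and 4.53% in CD36+ NK and 5.15%, 4.63% and 4.03% in CD36- NK. On this scale the groups overlapped, with a difference of 0.191 percentage points (exact permutation test, two-sided, p = 0.7, 0.7 after adjustment over the 3 genes tested this way, 0.1 being the smallest p the design allows). Ratios to the B cell markers were computed for Ly6d, Tcf4 and Irf8 after their values had been seen. With a smallest possible p of 0.1, these permutation tests could not reach 0.05. The part of B cell RNA in the Ly6d difference was not tested.

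Of the transcription factors, Tcf4 (ENSMUSG00000053477) had 67.6, 98.2 and 99.4 CPM in CD36+ NK and 48.7, 99.1 and 85.7 CPM in CD36- NK. The groups overlapped, and replicate 1 was the lowest library of each group. The log2 fold change was 0.19 ± 0.27 (SE, edgeR adjusted p = 0.730), with a 95% interval of the fold from 0.730 to 1.77. Replicate 1 of both groups also shares a form of library name that the other libraries lack. The log2 fold change was 0.22 ± 0.11 with this name form as a block and -0.078 without CD36- NK replicate 1, which leaves 1 of the 2 libraries with that form. Relative to the B cell markers, Tcf4 was 1.55% ± 0.29 in CD36+ NK and 2.01% ± 0.73 in CD36- NK (SD, n = 3, exact permutation p = 0.4, adjusted 0.6).

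Irf8 (ENSMUSG00000041515, chromosome 8, 121463097 to 121483433, plus strand), a factor in the development of dendritic cells, monocytes and B cells, had 251, 279 and 482 CPM in CD36+ NK and 582, 268 and 503 CPM in CD36- NK. The spread within each group, 1.92 times in CD36+ NK and 2.17 times in CD36- NK, exceeded the difference of the group means. The log2 fold change was -0.42 ± 0.34 (SE, edgeR adjusted p = 0.503), with a 95% interval of the fold from 0.428 to 1.31. Its size turned on single libraries, at -0.77 without CD36+ NK replicate 3, -0.69 without CD36- NK replicate 2 and -0.21 without CD36- NK replicate 1, with adjusted p-values of 0.256, 0.18 and 0.777. Relative to the summed B cell markers, Irf8 was 5.97% ± 2.42 in CD36+ NK and 11.6% ± 4.13 in CD36- NK (SD, n = 3, exact permutation p = 0.2, adjusted 0.6).

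Runx2 (ENSMUSG00000039153, chromosome 17, 44806874 to 45125684, minus strand) had 36.0, 45.8 and 43.2 CPM in CD36+ NK and 43.8, 45.2 and 54.7 CPM in CD36- NK. The groups overlapped, and Runx2 had the narrowest range of the 6 genes, 1.52 times from the lowest to the highest library. The log2 fold change was -0.20 ± 0.14 (SE, edgeR adjusted p = 0.414), with a 95% interval of the fold from 0.698 to 1.09. The interval thus held no fold as large as 2. With single libraries left out, the log2 fold change ran from -0.27 without CD36- NK replicate 1 to -0.10 without CD36- NK replicate 3. Among the 5 entries that overlap Runx2, Supt3 on the opposite strand had 518 counts and the antisense entry Runx2os1 had 79, against 3188 for Runx2.

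Across the 6 libraries the members did not all move together. Pearson's r of log2 CPM was 0.60 between Siglech and Ly6d (0.71 after group means were removed), 0.31 between Siglech and Ccr9 (0.083), -0.19 between Siglech and Tcf4 (-0.31), and -0.79 between Siglech and Irf8 (-0.76). Siglech and Runx2 had an r of -0.77. Among the pairs without Siglech, r ran from -0.73 between Ly6d and Runx2 (-0.58) to 0.63 between Ccr9 and Ly6d (-0.45). Tcf4 and Runx2 had an r of 0.32 (0.62). These values describe 6 points that share library depth and cell make-up. The genes most like Siglech in this measure were 2810402E24Rik (r = 0.992), Vrk1 (0.986), D17H6S56E-5 (0.985), Ifit1bl2 (0.985) and Kctd14 (0.984), none of them a DEG. With 24 tested genes above 0.95, and with a Siglech level of a few CPM, such values single out no gene.

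The other pDC genes were examined as 4 lists. Over all tested genes, 5.96% were DEGs, 32.8% did not overlap between the groups and 26.3% had an unadjusted p below 0.05 in edgeR's quasi-likelihood test. These shares are the background for each list. Of 15 other pDC-enriched genes, all tested, 1 was higher and 2 were lower in CD36+ NK as DEGs and 12 were not called. The median log2 fold change was 0.38, and 9 did not overlap between the groups, 6 higher and 3 lower. Lifr, the receptor subunit for leukemia inhibitory factor, rose from 7.53, 6.63 and 4.98 CPM in CD36- NK to 20.1, 27.0 and 21.5 CPM in CD36+ NK (log2 fold change 1.84 ± 0.20 SE, edgeR adjusted p = 0.00329). Atp1b1, a subunit of the sodium-potassium pump, fell from 159, 143 and 183 CPM in CD36- NK to 38.5, 40.3 and 34.0 CPM in CD36+ NK (log2 fold change -2.10 ± 0.12 SE). Neither of these DEGs is restricted to pDC.

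Cox6a2, a subunit of the mitochondrial cytochrome c oxidase that is narrow to pDC among blood cells, was lower in CD36+ NK at very low levels, with 0.333 to 0.809 CPM against 1.503 to 2.05 CPM (log2 fold change -1.52 ± 0.38 SE, edgeR adjusted p = 0.0499). The most abundant genes of the list that were not called were the Ly6 family genes Ly6c2 and Ly6a and the tetherin gene Bst2, a pDC surface antigen in mice that other cells also take on under interferon. Ly6c2 had a log2 fold change of -1.14 (edgeR adjusted p = 0.0669), Ly6a of 0.89 (0.0143) and Bst2 of 0.38 (0.151). The list thus held genes of both directions.

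**Figure D4:**
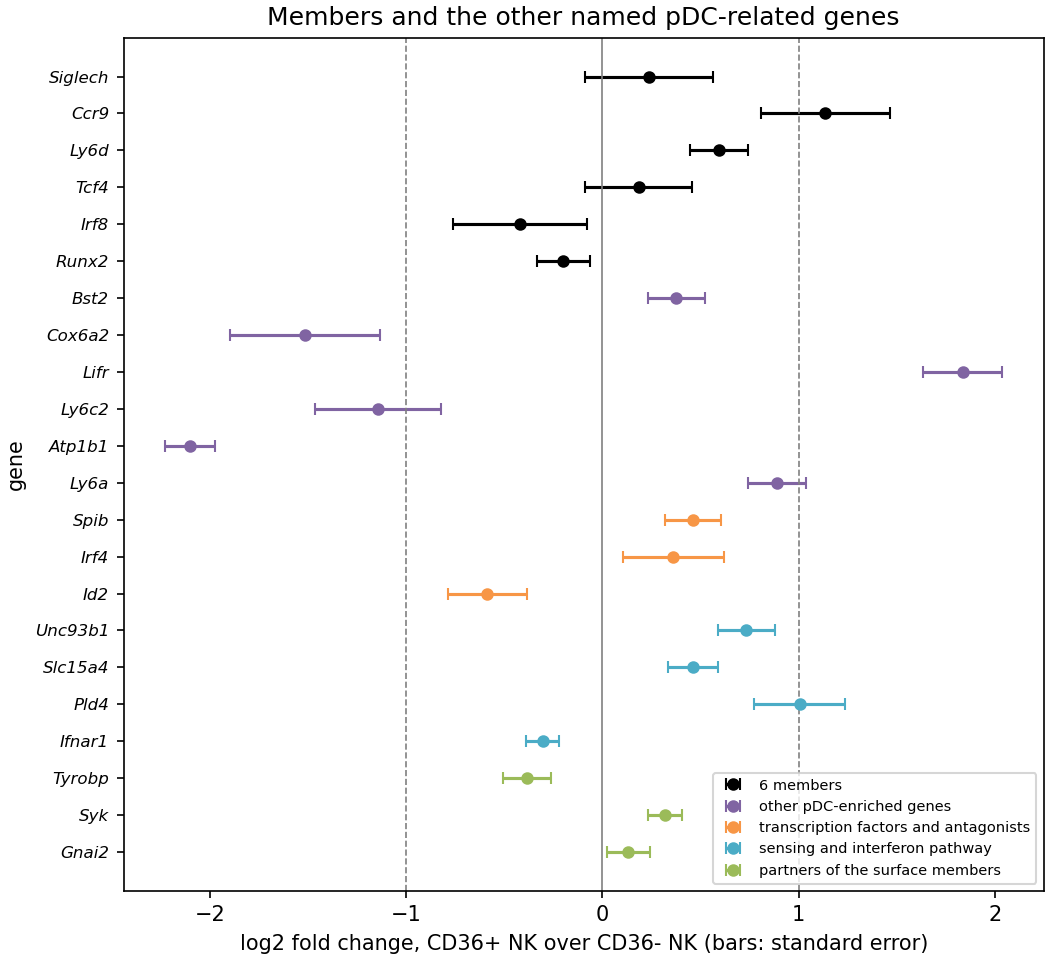
Log2 fold change of CD36+ NK over CD36- NK with standard errors for the 6 genes and for the genes of the 4 pDC lists named by rule, with dashed lines at a fold change of 2. Of the 6 genes Ccr9 alone lies past a dashed line, at 1.14, and the farthest points are Atp1b1 at -2.10 and Lifr at 1.84.

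Of 15 further transcription factors that act with or against TCF4, IRF8 and RUNX2, none was a DEG in edgeR's quasi-likelihood test, DESeq2 or edgeR's exact test, and 9 had an unadjusted p below 0.05. The groups did not overlap in 9, 3 higher and 6 lower in CD36+ NK (median log2 fold change -0.081). Spib, an ETS factor of pDC and B cells, had a log2 fold change of 0.46 ± 0.14 (SE, edgeR adjusted p = 0.0895) and Irf4, a factor of activated B cells and plasma cells, of 0.36 ± 0.26 (0.436). Id2, which encodes an inhibitor of E proteins such as TCF4 and acts in NK cell development, had -0.59 ± 0.20 (0.116). Named after their values were seen, 3 genes passed the adjusted p without the fold. These were Bcl11a, a factor of pDC and B cells, at 0.53 (0.0257), and the RUNX family genes Runx1 at -0.50 (0.0344) and Runx3 at -0.70 (0.00791), both active in NK cells. The unequal levels of the family are plain on the FPKM scale, where the mean over the 6 libraries was 19.0 for Runx3 and 5.38 for Runx1, against 2.05 to 3.06 in single libraries for Runx2.

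In the pathway that lets pDC sense nucleic acids and make interferon, 12 of 16 genes were tested, 1 was higher as a DEG and none was lower, and 7 had non-overlapping groups, 5 higher and 2 lower (median log2 fold change 0.20). Pld4, an endolysosomal nuclease abundant in pDC and B cells, rose from 286, 354 and 207 CPM in CD36- NK to 432, 626 and 643 CPM in CD36+ NK (log2 fold change 1.01 ± 0.23 SE, edgeR adjusted p = 0.0373). With DESeq2, 0 of the 12 genes passed both thresholds. Unc93b1, the chaperone of endosomal Toll-like receptors, had a log2 fold change of 0.73 ± 0.15 (0.0245), the transporter gene Slc15a4 of 0.46 ± 0.13 (0.0614), and the interferon receptor gene Ifnar1 of -0.30 ± 0.084 (0.0645). Tlr9, the receptor for unmethylated DNA in pDC and B cells, had 90.2, 93.0 and 96.4 CPM in CD36+ NK and 58.3, 70.9 and 43.8 CPM in CD36- NK, with a log2 fold change of 0.69 (0.0435), and was named after its values were seen.

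The interferon genes themselves, the products pDC are best known for, were at the floor. Ifna1 had 14 counts, Ifna2 4, Ifna4 11 and Ifnb1 9 over all 6 libraries together, and none was tested. At this depth a difference in their transcription was not detectable.

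Of 6 genes that work with the surface members, none was a DEG in edgeR's quasi-likelihood test, DESeq2 or edgeR's exact test, and 4 had an unadjusted p below 0.05. The groups did not overlap in 3, 1 higher and 2 lower (median log2 fold change 0.19). Tyrobp, which encodes the adaptor DAP12 of SIGLEC-H and of many NK receptors, had 259, 255 and 283 CPM in CD36+ NK and 381, 365 and 293 CPM in CD36- NK (log2 fold change -0.38 ± 0.12 SE, edgeR adjusted p = 0.0938). Syk, the kinase downstream of DAP12 and of the B cell receptor, had a log2 fold change of 0.32 ± 0.086 (0.0611), and Gnai2, a G protein subunit used by chemokine receptors such as CCR9, of 0.13 ± 0.11 (0.516). Flt3l, the ligand that drives dendritic cell development, was the 1 gene of this list to pass the adjusted p, at -0.63 (0.0181).

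Markers of other cells that a CD3- NK1.1+ sort could hold are given beside these results. Among all tested genes, the shares were 5.96% for DEGs, 32.8% for groups without overlap and 26.3% for an unadjusted p below 0.05. DESeq2 called 7.74% of all tested genes and the exact test 8.45%. Macrophage and Kupffer cell markers summed to between 2251 and 5584 CPM in CD36+ NK and between 364 and 1366 CPM in CD36- NK, with 8 of 10 tested, all 8 without overlap and higher in CD36+ NK. Of these, 3 were DEGs by edgeR's quasi-likelihood test and 7 each by DESeq2 and the exact test. Csf1r, one of the 3, had a log2 fold change of 1.89, and the complement gene C1qb, not called by the quasi-likelihood test, of 2.87 (edgeR adjusted p = 0.0527). Of 10 conventional dendritic cell markers, 3 were higher and 1 was lower as DEGs, with 2.53 for Sirpa, which macrophages share, and -1.13 for Itgax, which NK cells share. The other 2 called higher were Xcr1 at 2.46, narrow to conventional dendritic cells, and Clec9a at 2.03 (edgeR adjusted p = 0.00763 and 0.0204). Of 5 plasma cell markers none was a DEG by edgeR's quasi-likelihood test, DESeq2 or the exact test (3 at an unadjusted p below 0.05), with 0.44 for Jchain, 0.30 for Xbp1, 0.96 for Mzb1 (edgeR adjusted p = 0.0101) and -0.83 for Prdm1 (0.0547). The groups did not overlap in 3 plasma cell markers, 2 higher and 1 lower. Of 8 tested monocyte markers, 2 were higher and 1 was lower as DEGs, and 5 did not overlap between the groups, 3 higher and 2 lower. S100a8 had a log2 fold change of -0.24. The macrophage list moved in 1 direction, the conventional dendritic cell and monocyte lists in both, and their part in the values of the 6 genes was not tested. Flt3l, Xcr1, Clec9a, Mzb1 and Prdm1 were named after their values were seen.

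Markers of resident lymphocytes and of the liver itself gave no DEG in edgeR's quasi-likelihood test. Of all tested genes, 26.3% had an unadjusted p below 0.05, and DESeq2 and the exact test called 7.74% and 8.45%. Of 6 markers of liver-resident NK cells and innate lymphoid cells, 3 had an unadjusted p below 0.05 and 0 were called by DESeq2 or the exact test, with -0.90 for Tnfsf10 and -0.59 for Il7r. Of 3 tested markers of sinusoidal endothelial cells, 2 had an unadjusted p below 0.05 and 1 was called by DESeq2 and by the exact test, with 2.79 for Stab2 and 0.38 for Pecam1. The 5 hepatocyte markers, led by Alb and Apoa1, were too low to be tested and summed to between 1.58 and 10.2 CPM in CD36+ NK and between 0.0884 and 0.692 CPM in CD36- NK. The hepatocyte sums did not overlap between the groups, and their part in the results was not tested.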

How the data were processed

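RNA-seq libraries of CD36+ NK and CD36- NK cells (3 of each) were analysed from 1 table. According to the study's methods, the authors filtered reads with Seqtk, mapped them with HISAT2 (version 2.0.4), used StringTie to count fragments and then applied TMM. The deposited counts per gene were taken here as raw counts. The FPKM values deposited beside them by the authors were used only to compare levels between genes. The build of the table's coordinates is not given in the sources used here. The submitters' processing notes name a rat build, whereas the gene identifiers are those of mouse, so coordinates of the table and of the RefSeq promoters were kept apart. Groups follow the sample titles, whose CD36 sign disagrees with that of the library names. The lines of 2 genes were broken and were rejoined.

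Counts were tested with edgeR 4.0.16 (quasi-likelihood test, TMM, filterByExpr with a minimum count of 10, no block) in R 4.3.3 with limma 3.58.1. Benjamini-Hochberg adjustment covered all 14761 tested genes. The standard error of a log2 fold change was its size over the root of the F statistic. The biological coefficient of variation was 20.3%, and replicates differed by more than sampling noise (chi-square per degree of freedom 14.7 to 29.0). Log2 CPM for correlations used a prior count of 2. Ratios and permutation tests used scipy 1.17.1 in Python 3.11.15. The fit was repeated with other tools (DESeq2 1.42.0 and the exact test of edgeR), other scaling and filters, blocks, and with each library left out. Scripts were tested on simulated data. Promoter windows were cut to the 250 bases before the start. Overlapping genes were those sharing any base of a member's span in the table.

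The 6 genes and the lists were chosen with earlier results of these data known. Named by rule were the 6 genes, the called genes of each pDC list with its 3 most abundant genes not called, the 2 most abundant genes of each marker list, the 5 genes most like Siglech, Cd36, and genes overlapping a member. Of the genes this rule names, 2 are not reported here. Counting intervals cover counting error only.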

Additional observations from a re-analysis of the deposited data

How the results depend on the processing

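None of the 6 genes was called by edgeR's quasi-likelihood test under any scaling, filter, block or left-out library tried, whereas 1 was called by DESeq2 (Ccr9), 1 by edgeR's exact test (Ccr9) and 1 without the fold threshold (Ly6d). Over all genes, 880 were called, 440 higher and 440 lower, and 1552 without the fold threshold. With single libraries left out, the number of genes called ran from 417 to 1160, at 417 without CD36- NK replicate 1, 418 without CD36+ NK replicate 2, 431 without CD36- NK replicate 3 and 451 without CD36+ NK replicate 3. The even split into higher and lower calls did not hold there, with 94 higher and 323 lower without CD36- NK replicate 1, 120 and 298 without CD36+ NK replicate 2, and 708 and 452 without CD36- NK replicate 2. Of these alternatives, leaving out CD36- NK replicate 1 turned the sign of Tcf4, whose log2 fold change ran from -0.0783 to 0.394 with single libraries left out. For Ccr9 the log2 fold change was between 0.78 and 1.33 and the adjusted p between 0.0889 and 0.192 with single libraries left out. For Ly6d the adjusted p was 0.0521 with upper-quartile scaling and 0.0696 without a filter. The calls of all genes were split 652 higher and 491 lower with DESeq2 and 723 and 524 with the exact test. The causes of these shifts were not tested.

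The replicate numbers of the titles are not stated to pair the samples. Columns were matched to samples by library name, whose number differs from that of the title for CD36- NK, so replicate numbers within CD36- NK, the block and the names of left-out CD36- NK libraries rest on that match. By title number, the deviations of same-numbered libraries correlated at 0.31, 0.052 and -0.084. A fit with a block for replicate number called 560 genes, 221 higher and 339 lower, 542 of them also called without it, and none of the 6. Depth limits Siglech and Ccr9, with 20 to 84 counts per library, and the interferon genes.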
